A study of Mus musculus with 12 samples.

Results

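The 9 genes described here code for acute-phase and related secreted proteins in mouse gingiva: the serine protease inhibitors Serpina3n, Serpina3f and Serpina3g, the serum amyloid A genes Saa1, Saa2 and Saa3, haptoglobin (Hp), lipocalin 2 (Lcn2) and kininogen 2 (Kng2). They were taken by name from a count table of 21965 genes, and 9 of 9 were found and passed the filter on low counts, among 15046 genes tested. The study labelled Serpina3n, Serpina3f, Saa1 and Kng2 in its own plot of ligated CybbKO against ligated WT tissue, so these 4 were chosen by their measured fold change and p-value in that contrast, and the others were added with results of these data known. For all 9 genes the values in that contrast, and in the difference between the genotypes' responses, are therefore given as a description with no test. RNA was sequenced from gingiva of C57BL/6 wildtype (WT) mice and of Cybb-/- (CybbKO) mice, in which the gene for the catalytic Nox2 subunit is disrupted in the whole body. In ligated mice a silk thread was kept around a maxillary molar for 8 days, which lets bacteria gather at the gum margin, and naive mice had no ligature. The mice were under 12 weeks old by the sample labels and matched for age and sex. Each of the 4 groups (WT naive, WT ligated, CybbKO naive, CybbKO ligated) held 3 mice with 1 library each. The edgeR p-values and standard errors use 1 spread per gene, estimated within the groups over all 12 libraries with information from other genes. They do not measure the spread of a single group of 3 mice. The study's methods give a narrower age range, and the study places the ligature on the left side where the labels say right.

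In the acute-phase response, interleukin 6, interleukin 1 and related cytokines act through STAT3, C/EBP and NF-kB factors to raise the production of secreted defence and transport proteins. The liver is its best-known site, but epithelium, macrophages, fat and neutrophils also make some of these proteins: Saa3 is made mostly outside the liver, and Lcn2, which captures bacterial iron carriers, is stored in neutrophil granules and secreted by epithelium. The mouse Serpina3 genes lie in 1 cluster and are related to human alpha-1-antichymotrypsin, an inhibitor of neutrophil and mast cell proteases.

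Total counts per library ran from 27958819 to 42613423. The keratinocyte markers Krt5 and Krt14 had group means of 4093 to 8241 CPM (counts scaled to a common library total), as gingival epithelium has. Cybb itself was higher in the libraries labelled CybbKO, with 41.6, 56.3 and 45.9 CPM in naive and 56.1, 51.1 and 63.7 CPM in ligated tissue, against 5.60, 5.38 and 4.19 CPM in naive and 8.41, 15.2 and 12.8 CPM in ligated WT tissue. A count over the whole gene also takes reads from a disrupted transcript, so it does not check the label. Summed salivary gland markers ranged from 62.7 CPM in naive WT replicate 1 to 29071 CPM in naive WT replicate 3, and from 1626 to 5035 CPM in the other 10 libraries. Ligated WT replicate 1 was the lowest of its group for 9 of the 9 genes, and it also had the lowest neutrophil marker sum of the ligated libraries.

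A ligature of 8 days raised 7 of the 9 genes in CybbKO gingiva and none past the threshold in WT gingiva (adjusted p under 0.05, edgeR's quasi-likelihood test, adjusted over all tested genes). The 7 were Serpina3n, Serpina3f, Serpina3g, Saa1, Saa2, Saa3 and Hp, with log2 fold changes from 2.39 for Serpina3f to 7.12 for Saa3. Of all 15046 tested genes, 9.95% were called higher in that contrast. Saa1 and Saa2 passed the filter on low counts only through the ligated CybbKO libraries, in which they were high, so that a call for them says little. Of the 7 genes that pass without those libraries, 5 were called. In WT tissue 0 of 9 were called by edgeR, with 1 at an unadjusted p under 0.05, against 2.31% of all genes called higher. DESeq2 called 1 of 9 in WT (Saa3), against 5.66% of all genes, and 7 of 9 in CybbKO, against 12.3%. Over both genotypes together 6 of 9 were called higher, against 14.7% of all genes, and Serpina3f, Lcn2 and Kng2 were not. These 6, and the 7 of DESeq2 in CybbKO, include Saa1 and Saa2, for which the same limit of the filter holds. The CybbKO contrast and that over both genotypes use ligated libraries of the contrast in which 4 of the genes were labelled. The other genes were added with results of these data known, so neither count is independent support for the 9. All ligated CybbKO libraries lay above all naive CybbKO libraries for 8 of the 9 genes, against 18.5% of all genes, and all ligated WT above all naive WT libraries for 1 of 9, Saa3, against 13.3%. The median log2 change over the 9 genes was 2.51 in CybbKO and 0.70 in WT, against −0.03 over all tested genes in each. In whole tissue, more RNA per cell and more cells of a type that makes it cannot be told apart.

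**Figure D1:**
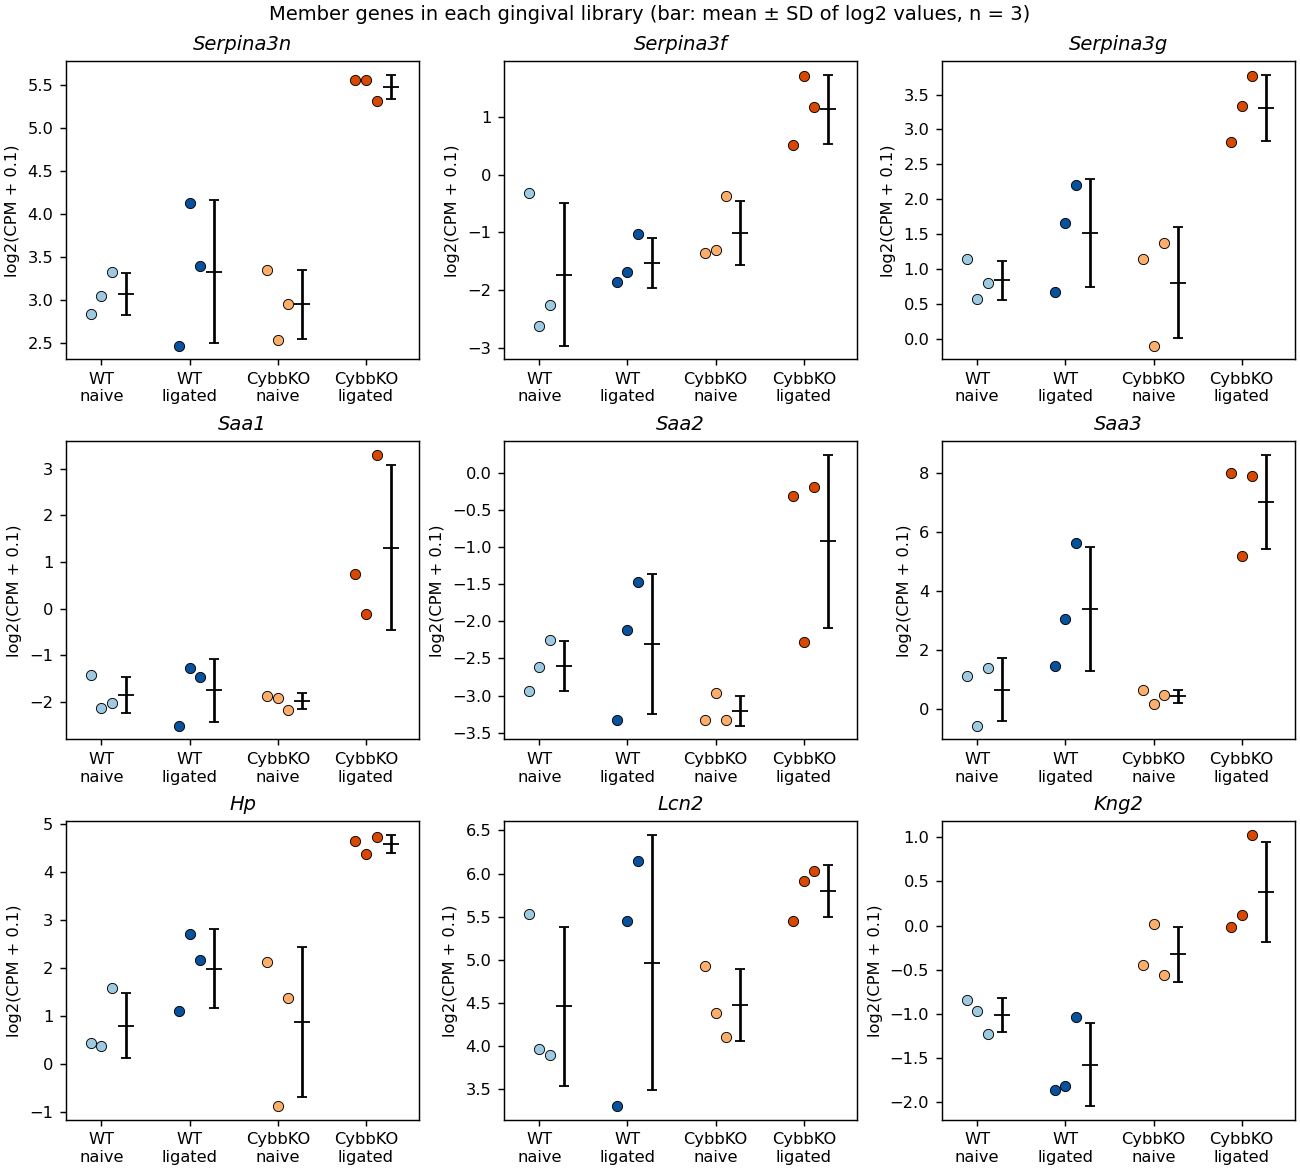
Level of each gene in each of the 12 gingival libraries, as log2(CPM + 0.1) on the vertical axis, with 1 panel per gene. Points are libraries of the 4 groups and bars are the mean ± SD of the log2 values (n = 3). The ligated CybbKO libraries lie above all naive CybbKO libraries in 8 panels, Kng2 being the exception.

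**Figure D2:**
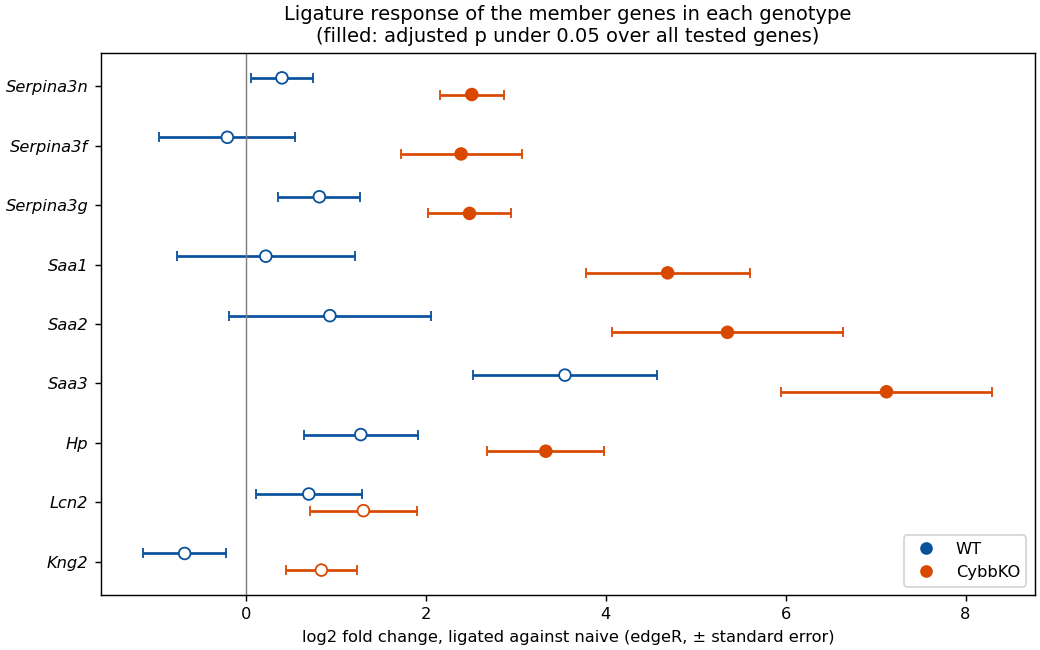
Log2 fold change of ligated against naive tissue on the horizontal axis, with its standard error, for each gene in WT (blue) and CybbKO (orange) gingiva. Filled points passed an adjusted p under 0.05 over all tested genes, which 7 genes did in CybbKO and 0 in WT. Saa1 and Saa2, among the 7, passed the filter on low counts only through the ligated CybbKO libraries.

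Serpina3n, an inhibitor of granule proteases of neutrophils and other leukocytes, had 7.07, 8.19 and 9.91 CPM in naive WT and 10.1, 5.72 and 7.66 CPM in naive CybbKO gingiva. Under ligature it had 5.43, 17.4 and 10.4 CPM in WT and 47.1, 47.1 and 39.7 CPM in CybbKO tissue. The ligated CybbKO libraries were close to each other and above all others, while the other groups overlapped. The share of all tested genes with ligated CybbKO above all others was not computed, here or for the genes below. Serpina3n rose by a log2 fold change of 2.51 ± 0.35 (SE, n = 3 a group; adjusted p = 0.00227, edgeR) in CybbKO tissue, which is 5.70-fold, and the change in WT was 0.40 ± 0.34 (adjusted p = 0.554, edgeR). The CybbKO call held with each library left out in turn, with adjusted p from 0.0015 to 0.0159.

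Serpina3g, an inhibitor of cysteine proteases known from activated T cells and macrophages, had 2.10, 1.39 and 1.64 CPM in naive WT and 2.11, 0.832 and 2.50 CPM in naive CybbKO tissue. With ligature the values were 1.49, 3.06 and 4.51 CPM in WT and 6.95, 9.98 and 13.6 CPM in CybbKO. Again the ligated CybbKO libraries stood above all 9 others. The rise in CybbKO was 2.49 ± 0.46 on the log2 scale (adjusted p = 0.0061, edgeR), and the WT difference was 0.82 ± 0.45 (adjusted p = 0.343, edgeR).

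Serpina3f, a less studied member of the cluster, was a low gene, with 28 counts over the 3 naive WT, 30 over the ligated WT, 43 over the naive CybbKO and 264 over the ligated CybbKO libraries. Its levels were 0.700, 0.0633 and 0.109 CPM in naive WT, 0.174, 0.209 and 0.389 CPM in ligated WT, 0.289, 0.305 and 0.671 CPM in naive CybbKO and 1.33, 3.18 and 2.15 CPM in ligated CybbKO tissue. The ligated CybbKO libraries lay above all others. The rise in CybbKO was 2.39 ± 0.67 on the log2 scale (adjusted p = 0.0372, edgeR), and it was no longer past the threshold in 7 of the 12 fits that left out 1 library (adjusted p up to 0.123) or in the fit with the replicate number as a block (adjusted p = 0.0658). Those libraries were ligated WT replicate 2 and each of the 6 CybbKO libraries. In WT tissue the difference was −0.20 ± 0.76, and it was 1.56 without naive WT replicate 1.

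The other genes of the cluster were mostly silent in gingiva: of 8 further Serpina3 genes listed, 7 were in the table and 3 passed the filter. Serpina3i rose in CybbKO tissue by 1.48 ± 0.42 on the log2 scale (adjusted p = 0.0381, edgeR), from a mean of 1.45 to 4.05 CPM. In WT tissue 0 of the 3 were called by edgeR or DESeq2, with 1 lower at an unadjusted p under 0.05. Reads cannot always tell these genes apart: of all 75-base windows in its transcripts, Serpina3g shares 7.69%, Serpina3f 5.33% and Serpina3n 1.46% with another Serpina3 gene.

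Saa3, the serum amyloid A made mostly outside the liver, had the widest range. It had 2.07, 0.569 and 2.52 CPM in naive WT and 1.44, 1.03 and 1.28 CPM in naive CybbKO gingiva. Under ligature it had 2.66, 8.14 and 49.2 CPM in WT and 251, 35.8 and 236 CPM in CybbKO. All 6 ligated libraries lay above all 6 naive ones, which held for 1 of the 9 genes and for 6.73% of all tested genes, while the ligated groups overlapped each other. Saa3 rose in CybbKO by 7.12 ± 1.17 on the log2 scale (adjusted p = 0.00364, edgeR), which is 139-fold. In WT the change was 3.55 ± 1.03 (adjusted p = 0.0819, edgeR), and DESeq2 called it (adjusted p = 0.0119). Without ligated WT replicate 3, its highest WT library, the WT value was 1.66. In the fit without ligated CybbKO replicate 2, edgeR called it too (adjusted p = 0.0444).

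Saa1, a serum amyloid A known chiefly from the liver, was near its naive level in every library but the ligated CybbKO ones. It had 0.274, 0.127 and 0.146 CPM in naive WT, 0.0747, 0.314 and 0.259 CPM in ligated WT, 0.173, 0.166 and 0.122 CPM in naive CybbKO and 1.57, 0.829 and 9.77 CPM in ligated CybbKO tissue. Each ligated CybbKO library was above all 9 others, and replicate 3 stood far above its group. The rise in CybbKO was 4.69 ± 0.91 on the log2 scale (adjusted p = 0.00733, edgeR), and 2.93 without replicate 3, still called. Saa1 passed the filter on low counts only through the ligated CybbKO libraries and was labelled in a contrast that used them, so these calls say little. In WT the difference was 0.22 ± 0.99 (adjusted p = 0.933, edgeR).

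Saa2, its close copy, was barely detected. Its counts summed to 6 over naive WT, 15 over ligated WT, 1 over naive CybbKO and 65 over ligated CybbKO libraries. Its levels in ligated CybbKO were 0.705, 0.107 and 0.776 CPM, against 0, 0.131 and 0.259 CPM in ligated WT, and replicate 2 overlapped the WT libraries. The 65 against 1 counts, per total count, are a ratio of 59.7, with a 95% interval of 10.3 to 2392 that covers counting error only. Like Saa1, it passed the filter on low counts only through the ligated CybbKO libraries, so a call says little. Saa2 was called higher in CybbKO (adjusted p = 0.0188, edgeR), but in 5 of the 12 fits without 1 library it was not (adjusted p up to 0.0711). These left out any naive CybbKO library, or ligated CybbKO replicate 1 or 3. Saa1 and Saa2 share 18.5% and 17.8% of their 75-base transcript windows with each other, so part of their reads cannot be assigned.

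Haptoglobin, which binds free haemoglobin and is also carried in neutrophil granules, had 1.25, 1.20 and 2.88 CPM in naive WT and 4.24, 0.444 and 2.50 CPM in naive CybbKO tissue. With ligature it had 2.04, 6.44 and 4.39 CPM in WT and 25.1, 20.7 and 26.7 CPM in CybbKO. The ligated CybbKO libraries were tightly grouped and above all others, and ligated WT overlapped naive WT. Hp rose in CybbKO by 3.33 ± 0.65 on the log2 scale (adjusted p = 0.00741, edgeR), which is 10.1-fold, and the WT difference was 1.28 ± 0.63 (adjusted p = 0.285, edgeR). The CybbKO call held with each library left out, with adjusted p up to 0.0323.

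Lcn2 was already abundant in naive gingiva, with 46.0, 15.5 and 14.9 CPM in WT and 30.4, 20.8 and 17.1 CPM in CybbKO. Ligated tissue had 9.81, 43.8 and 70.7 CPM in WT and 43.7, 60.4 and 65.0 CPM in CybbKO. The 2 ligated groups overlapped, and the highest value of all was a ligated WT library. The change was 1.31 ± 0.59 in CybbKO (adjusted p = 0.177, edgeR) and 0.70 ± 0.59 in WT (adjusted p = 0.549, edgeR). A fit of only the 6 CybbKO libraries called Lcn2 in CybbKO (1.32, adjusted p = 0.0185, edgeR).

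Kng2, a kininogen from which kinins are cut and whose other domains inhibit cysteine proteases, differed from the rest in order. It had 0.457, 0.411 and 0.328 CPM in naive WT, 0.174, 0.183 and 0.389 CPM in ligated WT, 0.635, 0.916 and 0.580 CPM in naive CybbKO and 0.888, 0.990 and 1.94 CPM in ligated CybbKO tissue. Every CybbKO library was above every WT library, with and without ligature, and the share of all tested genes with this joint pattern was not computed. Neither ligature contrast was called (0.84 ± 0.40, adjusted p = 0.196 in CybbKO, and −0.68 ± 0.46, adjusted p = 0.445 in WT, edgeR). Kng2 shares 10.8% of its transcript windows with Kng1.

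In naive tissue edgeR called 0 of the 9 genes between the genotypes, with 0 at an unadjusted p under 0.05, and 0 were called by DESeq2. Of all tested genes, edgeR called 0.00665%, a single gene, Cybb, and DESeq2 0.0133%. The log2 differences of CybbKO against WT ran from −2.40 ± 1.71 for Saa2 to 0.82 ± 0.43 for Kng2 (adjusted p = 1.00 for both, edgeR). The naive CybbKO libraries were all above the naive WT ones for Kng2, a pattern 2.08% of tested genes show, and all below for Saa2, a pattern 3.03% show, where the counts were 6 against 1. For the other 7 genes the naive groups overlapped.

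In ligated tissue all 9 genes were fitted higher in CybbKO than in WT, which describes the contrast in which 4 of them were labelled. Some cell markers differed in the same direction: 8 of 8 neutrophil markers were fitted higher (median log2 difference 1.33), with 7 at an unadjusted p under 0.05, as were 7 of 7 macrophage markers (median 0.49, with 3) and 5 of 5 adipocyte markers (median 4.03, with 4). Fibroblast markers were fitted higher in 6 of 6 and endothelial in 5 of 6, with 0 at an unadjusted p under 0.05. Fitted lower were 4 of 6 muscle, 3 of 4 salivary gland, 2 of 4 hepatocyte and 2 of 7 keratinocyte markers, with 0 lower at an unadjusted p under 0.05. With libraries left out in turn, a check added after seeing the data, the adipocyte median was 0.91 with 0 at an unadjusted p under 0.05 without ligated CybbKO replicate 2, and without ligated WT replicate 1 the neutrophil median was 1.00, with 2, and the macrophage median 0.31, with 0. In the fit of all libraries 0 of these markers were called by edgeR or DESeq2, and their part in the differences of the 9 genes was not tested. The log2 differences were 2.01 ± 0.35 for Serpina3n, 3.09 ± 0.70 for Serpina3f, 1.75 ± 0.45 for Serpina3g, 4.22 ± 0.87 for Saa1, 2.02 ± 0.86 for Saa2 and 3.12 ± 0.94 for Saa3. Those of the remaining genes were 2.49 ± 0.62 for Hp, 2.34 ± 0.43 for Kng2 and 0.44 ± 0.58 for Lcn2. The ligated groups did not overlap for Serpina3n, Serpina3f, Serpina3g, Saa1, Hp and Kng2, as for 5% of all tested genes. They overlapped for Saa2, Saa3 and Lcn2. The Saa1 difference was 2.46 without ligated CybbKO replicate 3, the Saa2 difference ranged from 1.42 to 2.98 with 1 library left out and was highest without ligated WT replicate 3, the Saa3 difference was 5.01 without that library, and the Lcn2 difference ranged from −0.04 to 1.07 with 1 library left out. Of all genes tested, edgeR called 0.00665% in this contrast.

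The difference between the genotypes' responses, the log2 change with ligature in CybbKO less that in WT, was above 0 for each of the 9 genes in the fit of all libraries. It was 2.11 ± 0.48 for Serpina3n, 2.598 ± 1.013 for Serpina3f and 1.67 ± 0.64 for Serpina3g, and the Serpina3f value was 0.84 without naive WT replicate 1. Among the serum amyloid A genes it was 4.47 ± 1.36 for Saa1, 4.42 ± 1.92 for Saa2 and 3.57 ± 1.41 for Saa3, with ranges of 2.70 to 4.95, 3.82 to 6.33 and 3.04 to 5.46 when 1 library was left out, and the fitted Saa2 value rests on 1 count in naive CybbKO tissue. For Hp it was 2.06 ± 0.88 (1.53 to 2.77), for Kng2 1.52 ± 0.61 (1.08 to 1.99) and for Lcn2 0.61 ± 0.83 (−0.14 to 1.24), so that Lcn2 alone changed sign. These values rest on the libraries of the contrast that chose 4 of the genes and have no test here. EdgeR called 0 of 15046 genes for a ligature response that differed between the genotypes, and by DESeq2 0 genes were called as well. By edgeR 342 had an unadjusted p under 0.05, fewer than this threshold would pass if no gene differed.

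Exact two-sided permutation tests of ligated against naive libraries within genotype, on mean log2(CPM + 0.1), can go no lower than p = 0.005. Saa3 gave exact p = 0.005 with 6 of 6 ligated libraries above all naive libraries of their genotype, Hp exact p = 0.01, Serpina3g exact p = 0.015 and Serpina3n exact p = 0.035, each with 5 of 6. Saa1 gave exact p = 0.045, Saa2 0.05, Serpina3f 0.06, Lcn2 0.115 and Kng2 0.88. Saa1 and Saa2 passed the filter on low counts only through the ligated CybbKO libraries. Serpina3n, Serpina3f, Saa1 and Kng2 were labelled in a contrast that used those libraries. The other genes were added with results of these data known, so these p-values are not independent support.

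Per length of transcript, as RPKM (the CPM divided by the exonic length in kilobases), the ligated CybbKO mean levels were ordered Saa3 66.9 ± 46.2, Serpina3n 21.6 ± 2.06, Lcn2 21.5 ± 4.26, Hp 15.0 ± 1.94, Serpina3g 4.83 ± 1.57, Saa1 1.64 ± 2.00, Serpina3f 0.969 ± 0.405, Kng2 0.465 ± 0.212 and Saa2 0.210 ± 0.146 (SD, n = 3). Saa3 varied too widely to be set apart from Serpina3n or Lcn2, and the latter pair did not differ beyond their spread. Nor did Saa1, Serpina3f and Kng2. In naive WT tissue the order was led by Lcn2 at 9.71 ± 6.79 RPKM and Serpina3n at 4.07 ± 0.695 RPKM, with Saa3 at 0.659 ± 0.391 RPKM.

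Over the 12 libraries, log2 CPM of the 9 genes correlated positively in 36 of 36 pairs, with a median r of 0.754. The genes were chosen with these data known and share the group differences given above, so this count is no support for a shared response. Over deviations from the group means, 31 of 36 pairs were positive with a median r of 0.409. Neither share was computed for pairs of other genes. Among the 9 genes, Serpina3n was most like Hp (r = 0.94). Outside them, the genes whose pattern was most like Serpina3n were Pram1, Ccrl2, Stfa2l1, Dok3 and Akna (Pearson's r 0.94 to 0.93 over 12 libraries). Among those most like Saa3 were Clec4d, Lcp1, Csf2rb and Mefv (r 0.98 each), and for Clec4d r was 0.93 over deviations from group means. Lcn2 was most like Tagap, Cxcl2, Lemd1, Tnfrsf11b and Zdhhc16 (r 0.91 to 0.88).

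Neutrophil markers were also fitted higher with ligature in both genotypes. The summed level of 8 markers, among them Ly6g and Csf3r, was 340 to 826 CPM in naive WT, 805 to 910 CPM in naive CybbKO, 1325 to 3681 CPM in ligated WT and 2477 to 11578 CPM in ligated CybbKO libraries. Between 91.8% and 98.6% of this sum was S100a8 and S100a9 in each library. In CybbKO 8 of 8 markers were called higher with ligature by edgeR and by DESeq2, although Ly6g passed the filter on low counts only through the ligated CybbKO libraries. In WT edgeR called 1 of 8 and DESeq2 4 of 8, with 6 of 8 at an unadjusted p under 0.05. Saa3 kept the order of this sum in ligated WT tissue, where the libraries with 1325, 2552 and 3681 CPM of markers had 2.66, 8.14 and 49.2 CPM of Saa3. It did not in ligated CybbKO tissue, where sums of 2477, 4341 and 11578 CPM went with 35.8, 251 and 236 CPM, nor in either naive group. Hp kept the order in ligated CybbKO tissue, with 20.7, 25.1 and 26.7 CPM, but not in ligated WT tissue, with 2.04, 6.44 and 4.39 CPM, nor in either naive group. Serpina3n kept it in neither ligated group, with 5.43, 17.4 and 10.4 CPM in WT and 47.1, 47.1 and 39.7 CPM in CybbKO. Lcn2 kept the order in both naive groups and in ligated WT tissue, with 9.81, 43.8 and 70.7 CPM, but not in ligated CybbKO tissue, with 60.4, 43.7 and 65.0 CPM. Csf3r alone, the receptor for the neutrophil growth factor G-CSF, had 12.3, 20.4 and 32.9 CPM in ligated WT and 79.7, 34.5 and 83.5 CPM in ligated CybbKO libraries, so that on this marker the ligated groups did not overlap. Macrophage markers were called higher in 7 of 7 in CybbKO by both tools, and in WT in 2 of 7 by edgeR and 3 of 7 by DESeq2, with 6 of 7 at an unadjusted p under 0.05. Their sums were 105 to 154 CPM in naive and 175 to 405 CPM in ligated libraries. Fibroblast markers were called higher in 5 of 6 in CybbKO by both tools, and in WT in 2 of 6 by edgeR and 4 of 6 by DESeq2, with sums of 1390 to 2917 CPM in naive and 3867 to 10396 CPM in ligated libraries. Endothelial markers were called higher in 5 of 6 in CybbKO by both tools, and in WT in 3 of 6 by edgeR and 6 of 6 by DESeq2, with sums of 117 to 148 CPM in naive and 211 to 335 CPM in ligated libraries. The part of these cells in the change of the 9 genes was not tested.

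**Figure D3:**
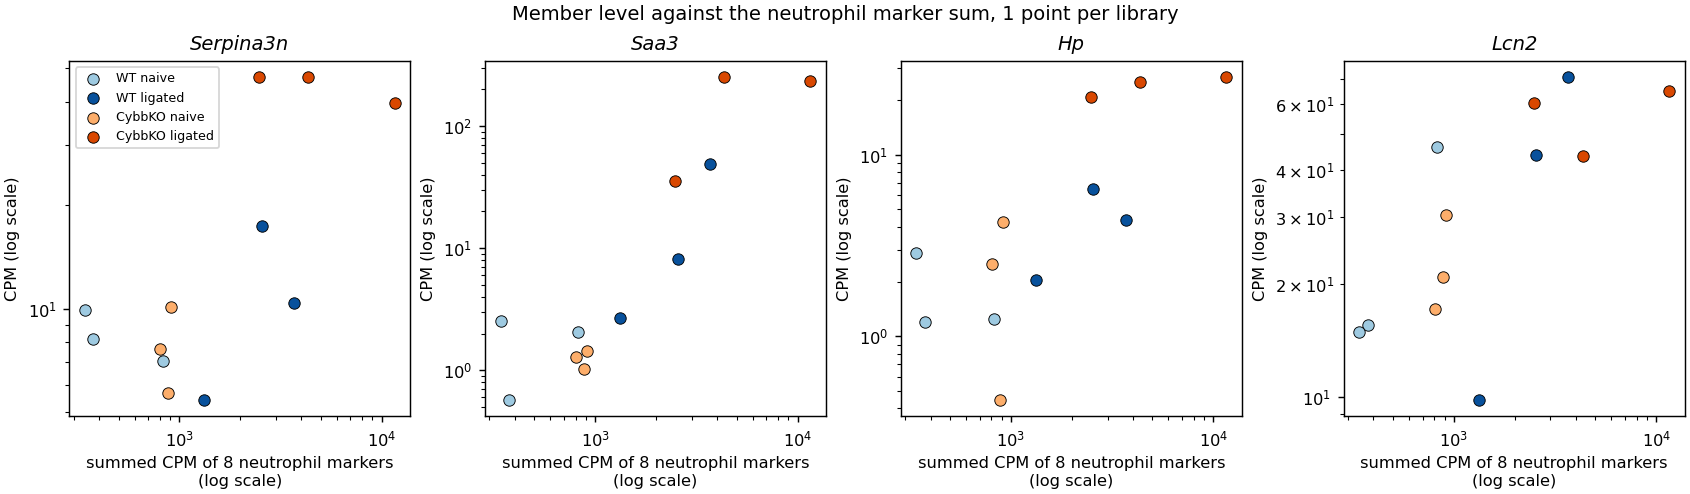
CPM of Serpina3n, Saa3, Hp and Lcn2 (vertical, log scale) against the summed CPM of 8 neutrophil markers (horizontal, log scale), with 1 point per library coloured by group. The sum, of which S100a8 and S100a9 make up at least 91.8% in each library, was 340 to 910 CPM in naive and 1325 to 11578 CPM in ligated libraries.

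Albumin (Alb) and Apoa1, both defining liver transcripts, were nearly absent, with 0 to 3 and 1 to 6 counts per group, while Ahsg, which codes for the liver protein fetuin-A, had group means of 12.7 to 21.1 CPM. Of the hepatocyte list, 4 of 7 genes passed the filter, of which 0 were called in WT and 0 in CybbKO by edgeR. In each genotype 1 was lower by DESeq2 and 1 at an unadjusted p under 0.05. Their summed level was 10.7 to 28.9 CPM in the 12 libraries, most of it Ahsg. The adipocyte list, with Adipoq and Plin1, summed to 11.5 to 57.9 CPM, with 0 of 5 called in either genotype by edgeR or DESeq2 and 1 higher in CybbKO at an unadjusted p under 0.05. The highest sum was that of ligated CybbKO replicate 2, against 19.3 and 16.4 CPM in the other ligated CybbKO libraries and 11.5 to 18.3 CPM in ligated WT. The same library had the lowest neutrophil, macrophage, fibroblast and endothelial sums of its group and its lowest Saa1, Saa2, Saa3 and Hp levels. Keratinocyte (7 genes), muscle (6 genes) and salivary gland (4 genes) markers also had 0 called in either genotype by edgeR, and DESeq2 called 1 salivary gland marker lower in CybbKO. At an unadjusted p under 0.05, 1 keratinocyte marker was higher and 1 salivary gland marker lower in CybbKO, and 0 were in WT.

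Other acute-phase genes changed in part. Of 28 further genes known to rise in the response, 14 were tested, and ligature raised 3 in WT and 5 in CybbKO and lowered 0 and 1. DESeq2 called 4 higher and 1 lower in WT, and 6 higher and 1 lower in CybbKO. A2m, a broad protease inhibitor, rose by 2.74 ± 0.57 on the log2 scale in WT (adjusted p = 0.0282, edgeR) and 2.41 ± 0.55 in CybbKO (adjusted p = 0.0155, edgeR). Steap4, a metalloreductase, rose by 1.59 ± 0.29 in WT (adjusted p = 0.02, edgeR) and 1.90 ± 0.29 in CybbKO (adjusted p = 0.00279, edgeR). Orm1, the carrier protein orosomucoid, was called in WT (2.95 ± 0.71, adjusted p = 0.0485, edgeR) and just missed in CybbKO (2.18 ± 0.68, adjusted p = 0.0545, edgeR). Of all tested genes, 0.884% were called lower in WT and 3.04% in CybbKO. Of 8 genes that fall in the liver response, 4 were tested. Rbp4, the retinol carrier, was called higher in CybbKO (1.76 ± 0.40, adjusted p = 0.0152, edgeR), and 0 were called in WT by edgeR, with 1 lower by DESeq2 and 1 lower at an unadjusted p under 0.05.

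Of 9 tested cytokines known to induce the response, edgeR called 1 higher in WT and 4 in CybbKO, while DESeq2 called 4 in each, and 5 in each were higher at an unadjusted p under 0.05. Il6 summed to 9 counts in naive WT, 74 in ligated WT, 11 in naive CybbKO and 324 in ligated CybbKO libraries, with a fitted log2 difference of 4.59 ± 1.12 in CybbKO (adjusted p = 0.0208, edgeR). Il6 and Il17f passed the filter on low counts only through the ligated CybbKO libraries, so that a call for Il6 says little, and of the other 7 cytokines 3 were called in CybbKO. Il17a rose in CybbKO by 2.71 ± 0.80 (adjusted p = 0.0443, edgeR), and in WT it changed by 3.31 ± 0.93 (adjusted p = 0.0769, edgeR). Il17f, a related cytokine, had 0 counts in naive WT, 30 in ligated WT, 16 in naive CybbKO and 196 in ligated CybbKO libraries. Of 19 receptors and factors, 0 rose and 1 fell in WT, with 4 higher at an unadjusted p under 0.05 and 1 by DESeq2, while 4 rose and 1 fell in CybbKO. Socs3, the feedback inhibitor of STAT3 signalling, rose in CybbKO by 1.67 ± 0.38 (adjusted p = 0.0146, edgeR), and Il1r1, the interleukin 1 receptor, by 1.40 ± 0.27 (adjusted p = 0.00702, edgeR). Il22ra1, an interleukin 22 receptor subunit, was called over both genotypes together (0.88 ± 0.26, adjusted p = 0.0295, edgeR).

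Of the proteases that Serpina3 proteins inhibit, 3 of 6 were tested and 0 were called in either genotype by edgeR. DESeq2 called 1 in WT and 0 in CybbKO, and at an unadjusted p under 0.05 1 was higher in each genotype and 1 lower in WT. Granzyme B (Gzmb) was called over both genotypes together (1.84 ± 0.43, adjusted p = 0.01, edgeR). Of 10 tested partners and receptors of these proteins, 3 rose in CybbKO. These were Fpr2, a receptor for serum amyloid A (2.90 ± 0.55, adjusted p = 0.00668, edgeR), Tlr2, a receptor for bacterial lipoproteins (1.56 ± 0.28, adjusted p = 0.00522, edgeR), and Mmp9, which forms a complex with Lcn2 protein (2.00 ± 0.53, adjusted p = 0.0297, edgeR). In WT 0 were called by edgeR, although 2 were higher and 2 lower at an unadjusted p under 0.05, and 1 was called higher by DESeq2.

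The genes lie at 5 places in the genome (GRCm38, GENCODE M21). Serpina3f (chr12:104214544-104221129), Serpina3g (chr12:104236245-104241939) and Serpina3n (chr12:104406729-104414329) share a stretch of chromosome 12 on the plus strand. Saa3 (chr7:46711998-46715700, minus strand), Saa1 (chr7:46740497-46742980, minus) and Saa2 (chr7:46751790-46754313, plus) are neighbours on chromosome 7. Hp is at chr8:109575128-109579172, Lcn2 at chr2:32384633-32388252 and Kng2 at chr16:22985854-23029482, all on the minus strand. RefSeq promoter windows (GRCm38.p6) were used for 8 of the 9 genes, and one of Hp was not used here. The window from 250 bases before to 50 bases after each start site was searched on both strands for TTCNNNGAA (STAT), TTNNGCAA (C/EBP) and GGNNTTTCC (NF-kB), the factors of the acute-phase response. The C/EBP letters were in 6 of the 8 genes (Serpina3f, Saa1, Saa2, Saa3, Lcn2, Kng2), against 10.8% of 32851 promoter windows. The NF-kB letters were in 3 (Serpina3n, Serpina3g, Saa3), against 5.82%, and the STAT letters in 2 (Serpina3f, Serpina3g), against 8.30%. A match is a description of the letters and not a known binding site.

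The 250 bases before the start site are shown for some of the genes. Serpina3n and Serpina3g were taken because their ligated CybbKO libraries lay above all others, as did those of Serpina3f, which is not shown. Saa3 was taken for the largest change, and Saa1 and Saa2 as near copies with different counts. The bases run 5′ to 3′ on the strand of the gene, and capitals mark the motif letters found.
Serpina3n (chr12:104406458-104406707, plus strand, NF-kB letters): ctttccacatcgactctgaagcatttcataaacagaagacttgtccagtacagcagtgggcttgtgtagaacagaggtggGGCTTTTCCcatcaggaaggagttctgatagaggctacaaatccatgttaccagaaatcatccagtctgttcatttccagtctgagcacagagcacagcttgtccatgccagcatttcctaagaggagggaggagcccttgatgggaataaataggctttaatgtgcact
Serpina3g (chr12:104235897-104236146, plus strand, NF-kB letters and then STAT letters): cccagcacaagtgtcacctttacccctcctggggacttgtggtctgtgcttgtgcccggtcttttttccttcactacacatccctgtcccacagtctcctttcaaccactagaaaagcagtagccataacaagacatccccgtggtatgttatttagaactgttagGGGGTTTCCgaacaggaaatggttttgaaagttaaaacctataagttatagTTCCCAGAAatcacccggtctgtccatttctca
Saa3 (chr7:46715677-46715926, minus strand, NF-kB letters and then C/EBP letters): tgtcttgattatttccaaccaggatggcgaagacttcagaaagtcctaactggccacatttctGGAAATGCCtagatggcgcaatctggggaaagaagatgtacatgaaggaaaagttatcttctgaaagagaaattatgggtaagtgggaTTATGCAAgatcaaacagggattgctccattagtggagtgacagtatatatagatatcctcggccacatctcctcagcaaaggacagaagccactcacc
Saa1 (chr7:46742981-46743230, minus strand, C/EBP letters): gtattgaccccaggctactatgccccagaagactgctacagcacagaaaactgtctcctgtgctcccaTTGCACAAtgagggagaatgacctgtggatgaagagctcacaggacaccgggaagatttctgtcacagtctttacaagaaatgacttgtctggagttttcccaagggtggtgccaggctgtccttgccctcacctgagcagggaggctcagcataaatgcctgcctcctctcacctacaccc
Saa2 (chr7:46751583-46751832, plus strand, C/EBP letters): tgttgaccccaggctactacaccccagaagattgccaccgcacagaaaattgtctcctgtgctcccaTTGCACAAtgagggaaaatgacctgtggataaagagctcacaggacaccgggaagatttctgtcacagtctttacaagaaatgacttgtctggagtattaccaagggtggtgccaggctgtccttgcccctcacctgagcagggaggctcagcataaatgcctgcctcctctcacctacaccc

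The Saa1 and Saa2 windows were 95.3% identical over 301 aligned positions, and both held TTGCACAA, which starts at −182 in Saa1 and at −183 in Saa2, counted in bases from the start site. Ligated CybbKO tissue had 519 counts of Saa1 and 65 of Saa2, and without replicate 3 it had 91 and 31. Saa3 was 50.9% identical to Saa1 in the same window, and its C/EBP letters TTATGCAA start at −99. Among the Serpina3 genes, Serpina3n and Serpina3f were 63.1% identical, and Serpina3g was 45.1% identical to Serpina3n. The letters found were NF-kB alone in Serpina3n, NF-kB and STAT in Serpina3g, and STAT and C/EBP in Serpina3f. C/EBP letters were in Saa1 and Saa2, and also in Lcn2 and Kng2, not called under ligature in either genotype in the fit of all libraries. A fit of only the CybbKO libraries did call Lcn2. Whether such letters go with the response was not tested.

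**Figure D4:**
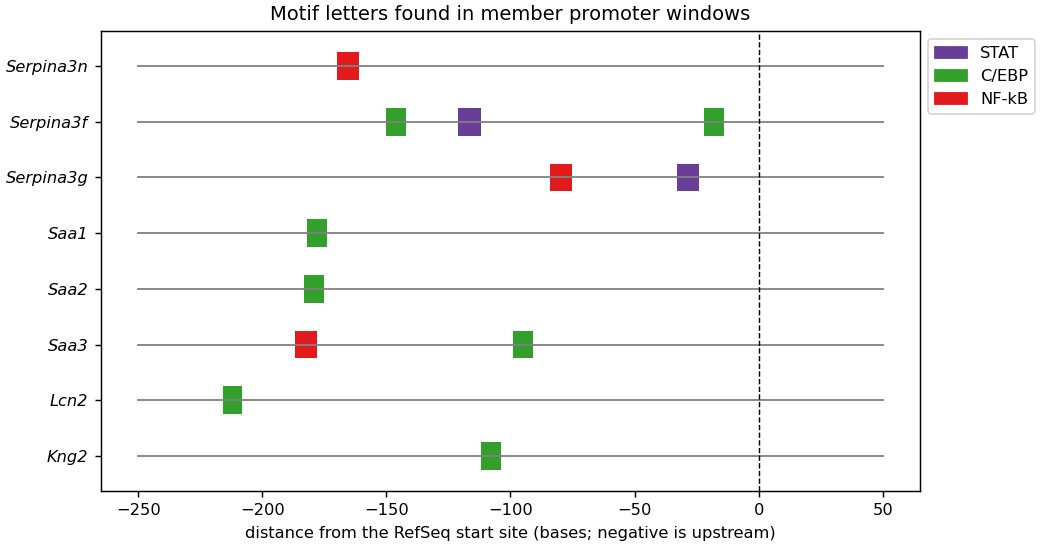
Places of the STAT, C/EBP and NF-kB letters in the promoter windows of 8 genes, with the distance from the RefSeq start site in bases on the horizontal axis and negative values upstream. Boxes are matches on either strand, all of them upstream of the start site, and for Serpina3f the first of its RefSeq start sites is drawn.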

How the data were processed

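Poly(A) RNA from gingiva was sequenced in 12 libraries with a stranded kit (TruSeq). The authors deposited raw counts of reads per gene, aligned to GRCm38 with STAR per the methods; the methods name featureCounts and the submitters' processing notes HTSeq 0.10.0 for the counting. Library totals ran from 27958819 to 42613423. Symbols came from GENCODE M21 for 21939 of 21965 genes. Of these counts, edgeR 4.0.16 (TMM, filterByExpr, quasi-likelihood test, 12 libraries, 1 mean per group) tested 15046 genes, with Benjamini-Hochberg adjustment over all of them and a threshold of 0.05. CPM use TMM-scaled totals, and RPKM the exonic length. Single genes were also compared by exact permutation with a pseudocount of 0.1 CPM.

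The 9 genes, the gene lists and the tests were chosen with earlier results of these data known. Named are all 9 genes, per list up to 3 called genes with the largest mean ligature change, the first 2 genes of marker lists used as labels, and the 5 genes most like Serpina3n, Saa3 and Lcn2. Not every gene the rule names is printed, and 1 of those most like Saa3 is not reported here. Alternatives were DESeq2 1.42.0, its size factors, other filters, only the libraries compared, a replicate block and each library left out. The procedure was tested on simulated data. Other samples' columns numbered 0. Protein sequences were not used here.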

Additional observations from a re-analysis of the deposited data

How the results depend on the processing

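Of 924 values of single genes recomputed under an alternative, 868 kept their direction and call, 22 were no longer called, 6 were newly called, 10 without a test moved by more than their SE and 16 reversed. A further 2 without a test, both of Lcn2, changed sign within their SE: −0.04 between ligated genotypes without ligated WT replicate 1, and −0.14 for the difference between responses without naive WT replicate 1. DESeq2 called 1375 genes in place of 481 for the ligature in WT, with 1 of the 9 genes (Saa3) in place of 0, 2 in place of 1 for naive CybbKO against WT, and 14 in place of 1 for ligated CybbKO against WT. With at least 10 counts in every library only 5 of the 9 genes were tested, and 4 of them were called in CybbKO. A fit of only the libraries compared called 0 genes between the ligated genotypes. A pseudocount of 1 CPM, chosen after seeing the data, gave Saa2 a mean difference of 0.32 with exact p = 0.045. The replicate numbers did not pair the samples (3 of 18 same-numbered pairs had a correlation over 0.1, from −0.34 to 0.33). With the number as a block, 271 genes were called in WT, and Serpina3f was no longer called in CybbKO.

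With 1 library left out, the genes called ranged from 27 to 900 for the ligature in WT, from 837 to 2949 in CybbKO, from 0 to 2 between ligated genotypes, and from 0 to 1 for the difference between the genotypes' responses. Of the 9 genes, 0 to 1 were called in WT, 5 to 7 in CybbKO, and 4 to 8 over both genotypes, where 2531 to 4694 of all genes were called. The lowest WT count, 27, was without naive WT replicate 2. The CybbKO count was highest, 2949, without ligated CybbKO replicate 2. Leaving out any WT library or ligated CybbKO replicate 1 or 2 moved the WT count by over 1.5 times, and leaving out any CybbKO library so moved the CybbKO count. The 16 values that reversed were all uncalled. For the ligature in WT they ranged from −0.081 to 0.76 for Serpina3n, from −0.68 to 1.56 for Serpina3f, from −0.14 to 0.67 for Saa1 and from −0.034 to 1.55 for Saa2. Over both genotypes, Kng2 ranged from −0.15 to 0.21. For naive CybbKO against WT the ranges were −0.27 to 0.96 for Hp, −0.43 to 0.58 for Lcn2, −0.46 to 0.18 for Saa1, −0.22 to 0.43 for Serpina3g and −0.33 to 0.083 for Serpina3n. Over both genotypes Saa1 was not called without naive WT replicate 2 or ligated WT replicate 2 or 3, and Saa2 not without naive WT replicate 2, ligated WT replicate 3, naive CybbKO replicate 1 or 3, or ligated CybbKO replicate 1 or 3. Lcn2 was called over both genotypes without naive WT replicate 1 (1.38) or ligated WT replicate 1 (1.26), and Serpina3f without naive WT replicate 1 (1.97). The causes were not tested. Depth limits Saa2, Saa1, Serpina3f and Kng2, whose counts summed to under 100 over the 3 libraries of most groups.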
